A study of Chlamydomonas reinhardtii with 8 samples.

Results

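In the green alga Chlamydomonas reinhardtii, 7 genes of iron assimilation and storage were followed through zinc deficiency and zinc return: FEA1, FEA2, TEF22, FRE1, FTR1, FER1 and FER2. They were taken by name from the gene symbols of the deposited table, where each of the 7 symbols matched 1 of 17737 genes. The choice was made with earlier results of these data known. Counts set beside shares over all genes are therefore description only. Strain CC-4532 was grown in Tris-acetate-phosphate medium under continuous light, and messenger RNA was sequenced in 8 conditions. There were 2 conditions with zinc (early replete and late replete) and 1 in the second round of growth without added zinc (deficient, 0 h). The other 5 were samplings of deficient cultures after 2.5 µM zinc chloride was returned, at 1.5 h, 3 h, 4.5 h, 12 h and 24 h. Below, replete culture and deficient culture name these conditions, which need not be single cultures. All conditions share 1 strain. There was no mock resupply, and it is not stated whether the early or the late replete culture was closer in age to the 0 h one.

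Iron enters this alga mainly by a reductive route at the cell surface. A ferrireductase (FRE1) reduces ferric iron, a multicopper ferroxidase oxidises it again, and a ferric permease (FTR1) carries it across the plasma membrane. The ferroxidase symbol FOX1 matched no gene symbol of the deposited values, so this step was not analysed. FEA1 and FEA2 are related proteins of the space outside the plasma membrane that help iron uptake, and FEA1 is also known as a protein made at high CO2. FER1 and FER2 encode ferritins, the shells in which the chloroplast stores iron. TEF22 was named from a thylakoid-enriched fraction and lies beside FEA1 in the genome.

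Levels are FPKM, sequenced fragments divided by transcript length and by the size of the library, with 1 value per gene and condition between deposited confidence bounds of unstated level. The study's design names 4 biological replicates per condition, but no replicate values were analysed here, so the differences are described without p-values and their spread between cultures is unknown. FPKM is scaled to length, so levels can be set side by side between genes. It is also a share of the messenger RNA pool, so less of a transcript per cell and more of other transcripts cannot be told apart. The zinc labels were checked on the zinc importers ZRT1 and ZRT3, which stood at 313 and 103 FPKM at 0 h and at most at 0.383 FPKM in the replete cultures. Sequencing depth is unknown, and total FPKM was 720944 to 886096 per condition. Calls of higher or lower needed a log2 ratio of FPKM + 1 of 1 or more in size, bounds that were apart, the status OK in both conditions and a mean of 1 FPKM or more across conditions. All 7 genes had the status OK in all 8 conditions. The filter kept 6 of them, FER2 being the exception with a mean of 0.0728 FPKM.

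FEA1 was the most variable of the 7 genes and was lowest in zinc deficiency. It stood at 385 FPKM (bounds 239 to 531) in early replete cells, 1152 (905 to 1399) in late replete cells and 24.2 (19.2 to 29.2) at 0 h. After zinc return it stood at 384 FPKM at 1.5 h, 453 at 3 h, 533 at 4.5 h, 1079 at 12 h and 1318 at 24 h. The 0 h bounds lay below those of every other condition. Its level at 1.5 h was 15.9 times that at 0 h (10.7 to 23.8 from the extremes of both bounds), and at 24 h it was 54.4 times (33.1 to 87.0). Among all genes ordered by FPKM, FEA1 went from position 1947 at 0 h to 242 at 1.5 h and 131 at 24 h.

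The value of FEA1 was higher at each time after zinc return than at the one before. After the rise at 1.5 h, the next intervals (1.5 to 3 h and 3 to 4.5 h) gave log2 ratios of 0.24 and 0.23, which were not called. Between 4.5 and 12 h, a longer interval, the log2 ratio was 1.02, called but close to the threshold. Because the intervals differ in length, separate steps cannot be told apart from a steady rise. At 1.5, 3 and 4.5 h FEA1 overlapped the bounds of early replete cells and lay below those of late replete cells. At 12 and 24 h the order was turned, with overlap with late cells and levels 2.80 and 3.42 times those of early cells.

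FEA2 followed a different course. It stood at 57.2 FPKM (45.4 to 69.1) in early replete cells, 85.4 (57.2 to 114) in late replete cells and 73.5 (58.9 to 88.0) at 0 h, 3 levels with overlapping bounds. After zinc return it stood at 599 FPKM (490 to 707) at 1.5 h, 540 at 3 h, 517 at 4.5 h, 365 (294 to 436) at 12 h and 120 (100.3 to 140) at 24 h. The highest value was therefore the first one measured after zinc return, 8.15 times that at 0 h (5.57 to 12.0). Its bounds overlapped those at 3 h (434 to 647) and 4.5 h (399 to 635), so a peak at 1.5 h is not resolved. The bounds at 1.5, 3, 4.5 and 12 h all lay above those of both replete cultures. Between 12 and 24 h FEA2 fell by 1.60 on the log2 scale, the 18th lowest ratio of 11464 genes tested in that step. At 24 h it overlapped late replete cells and was still 2.10 times as high as in early ones (1.45 to 3.08).

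**Figure D1:**
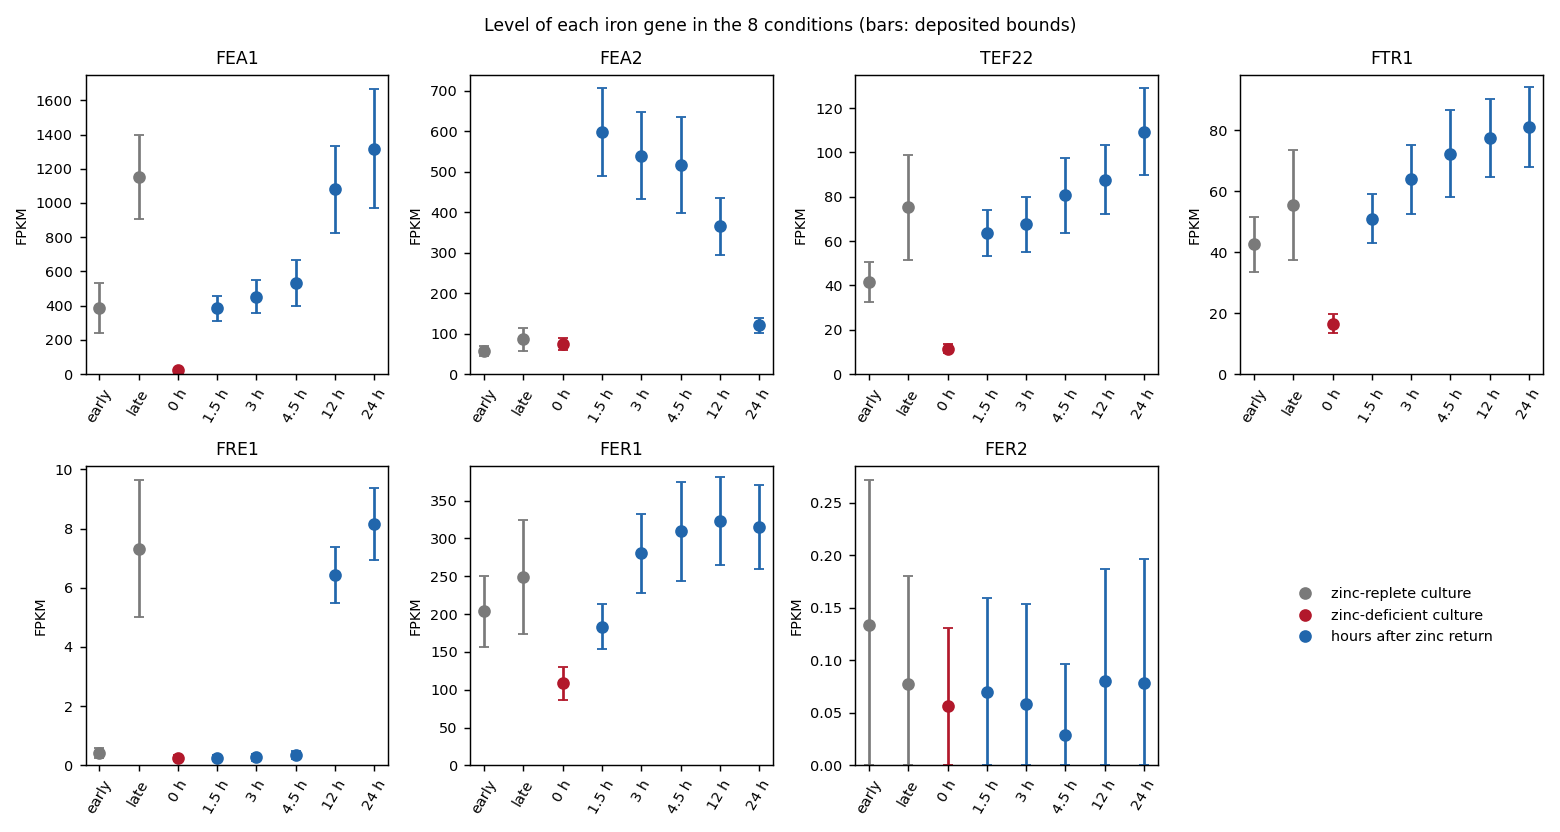
FPKM of each of the 7 genes (vertical axes, linear and from 0) in the early and late replete cultures (grey), in the deficient culture (red) and at 5 times after zinc return (blue); points are the deposited values and bars the deposited bounds. FEA1, TEF22, FTR1 and FER1 are lowest at 0 h with bounds apart from all others. FEA2 has its highest value at 1.5 h, with bounds that overlap those at 3 and 4.5 h. FRE1 is at 0.249 to 0.34 FPKM from 0 to 4.5 h and at 6.44 FPKM at 12 h.

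The balance between FEA1 and FEA2 turned over during the time course. In replete cells FEA1 made up 87.1% (early) and 93.1% (late) of the summed FPKM of both genes. At 0 h its share was 24.8%, with FEA2 3.03 times as high as FEA1. The ratio of FEA1 to FEA2 was 0.33 at 0 h, 0.641 at 1.5 h, 0.838 at 3 h, 1.03 at 4.5 h, 2.95 at 12 h and 11.0 at 24 h. Bounds of the 2 genes overlapped at 3 and 4.5 h, while FEA2 lay above FEA1 at 0 and 1.5 h and below it at 12 and 24 h. Both stand within a condition, so rescaling the libraries does not alter these ratios. The sum of both genes was 97.7 FPKM at 0 h and 983 at 1.5 h, and it reached 1444 at 12 h and 1438 at 24 h, against 442 and 1238 in early and late replete cells. How reads that could match both genes were assigned is not given in the sources used here.

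**Figure D2:**
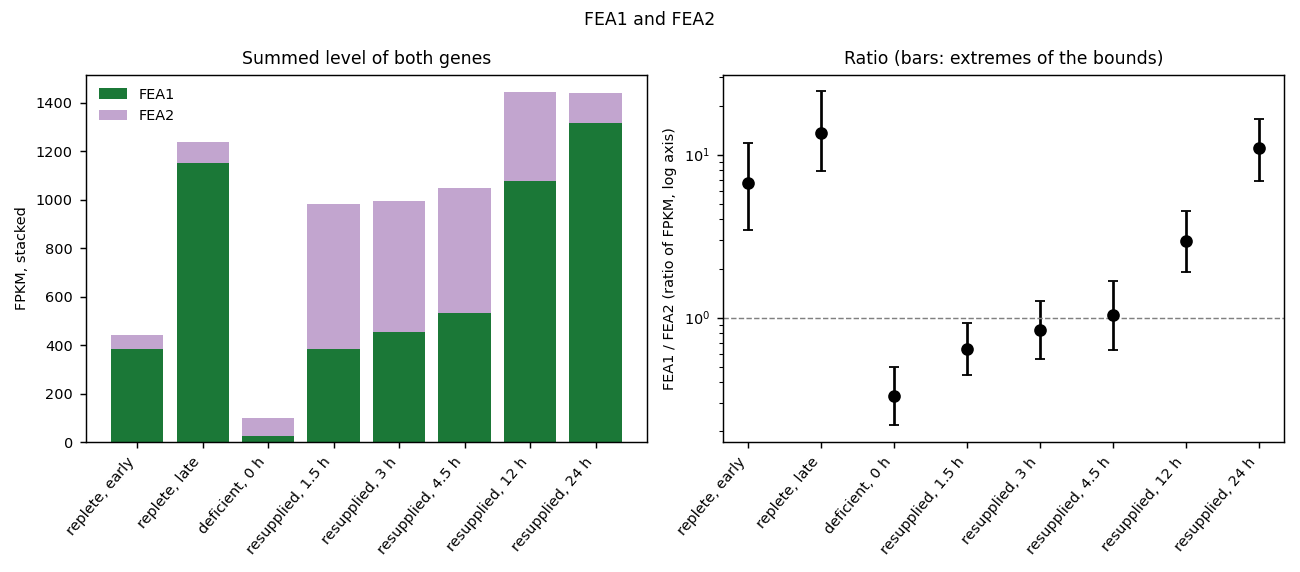
Left, stacked FPKM of FEA1 and FEA2 in each condition, with a linear axis from 0; right, their ratio on a log axis, with bars from the extremes of both bounds and a dashed line at 1. The ratio is 0.33 at 0 h, near 1 at 4.5 h and 11.0 at 24 h, while the sum is already 983 FPKM at 1.5 h.

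FEA2, FEA1 and TEF22 are next to each other on chromosome 12, with no other gene of the table between them. FEA2 (Cre12.g546600) spans 8666912 to 8670847, FEA1 (Cre12.g546550) 8671306 to 8675189 and TEF22 (Cre12.g546500) 8675408 to 8681279. The gaps are 458 bases between FEA2 and FEA1 and 218 bases between FEA1 and TEF22. All 3 genes rose at 1.5 h, and the 2 next genes on either side, chosen by position alone, were not called at 1.5 h or in deficiency, or were too low to be tested. Beside FEA2, Cre12.g546650 gave a log2 ratio of 0.46 and Cre12.g546700 one of 0.06 at 1.5 h. On the side of TEF22, Cre12.g546450 stood at 0.977 FPKM at 0 h and 0.626 at 1.5 h, with a mean below the filter, and DLC7b gave a log2 ratio of -0.81. Cre12.g546650 was at 85.7 FPKM at 0 h against 51.1 and 44.1 in replete cells, a log2 ratio below the threshold on the higher side.

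**Figure D3:**
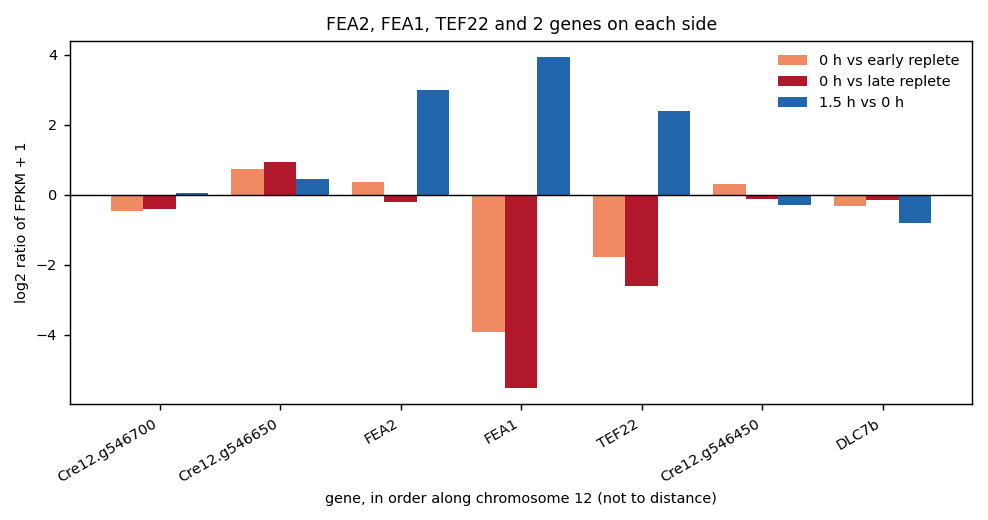
Log2 ratio of FPKM + 1 for FEA2, FEA1, TEF22 and 2 genes on each side, in their order along chromosome 12 with equal spacing: 0 h over early replete (orange), 0 h over late replete (red) and 1.5 h over 0 h (blue). The 3 genes in the middle have blue bars of 2.39 to 3.93, while the blue bars of the flanking genes lie between -0.81 and 0.46. The orange and red bars of the flanking gene Cre12.g546650 are at 0.74 and 0.94.

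TEF22 went with FEA1 in direction but less far. It stood at 41.4 FPKM (32.3 to 50.5) in early replete cells, 75.2 (51.5 to 98.9) in late ones and 11.4 (9.26 to 13.5) at 0 h. The levels after zinc return were 63.7 FPKM at 1.5 h, 67.6 at 3 h, 80.6 at 4.5 h, 87.8 at 12 h and 109 (89.7 to 129) at 24 h. All 7 other conditions lay above the 0 h bounds, and every time after zinc return lay above the bounds of early replete cells and overlapped those of late ones. FEA1 was 2.13 times as high as TEF22 at 0 h, 6.03 times at 1.5 h and 12.0 times at 24 h, so the genes did not keep a fixed proportion.

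The permease FTR1 (Cre03.g192050, chromosome 3, 6157033 to 6160982) was lower in deficiency and was back at replete levels by 1.5 h. It stood at 42.6 FPKM (33.6 to 51.6) in early replete cells, 55.6 (37.5 to 73.6) in late ones and 16.6 (13.5 to 19.7) at 0 h. After zinc return it measured 51.0 FPKM at 1.5 h, 63.9 at 3 h, 72.4 at 4.5 h, 77.5 at 12 h and 81.1 at 24 h. The 1.5 h level was 3.08 times that at 0 h and overlapped both replete cultures. From 3 h on, its bounds lay above those of early replete cells and overlapped those of late ones. No step between neighbouring times after 1.5 h was called (log2 ratios 0.07 to 0.32).

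The ferrireductase FRE1 (Cre04.g227400, chromosome 4, 3355079 to 3363615) did not follow the permease. It stood at 0.418 FPKM (0.239 to 0.598) in early replete cells, 7.32 (5.00 to 9.65) in late ones and 0.249 (0.141 to 0.357) at 0 h. At 1.5, 3 and 4.5 h it measured 0.257, 0.272 and 0.34 FPKM, with bounds that overlapped those at 0 h and in early replete cells. At 12 h it stood at 6.44 FPKM (5.50 to 7.38) and at 24 h at 8.15 (6.92 to 9.37). The 8 conditions therefore fall into 5 below 0.6 FPKM (upper bounds included) and 3 at 5.00 FPKM or above (lower bounds included), late replete, 12 h and 24 h. Between 4.5 and 12 h FRE1 rose 18.9-fold (11.5 to 36.4), a log2 ratio of 2.47 on the scale with the pseudocount and the 7th highest of 11470 genes. Between the replete cultures it had the highest log2 ratio of all 11465 genes tested (2.55, late over early, 17.5-fold). FRE1 passed the filter (mean 2.93 FPKM) only through the 3 conditions where it was high. Its calls and ranks therefore rest on the same values that kept it in. A call in deficiency was made against late replete cells (log2 ratio -2.74) and not against early ones (-0.18).

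The ferritin genes lay at opposite ends of expression. FER1 (Cre09.g387800, chromosome 9, 2960759 to 2963680) stood at 204 FPKM (157 to 250.4) in early replete cells, 249 (173 to 325) in late ones and 108 (86.9 to 130) at 0 h. The later levels were 183 FPKM (153 to 213) at 1.5 h, 281 at 3 h, 310 at 4.5 h, 323 at 12 h and 315 at 24 h. Its 0 h bounds lay below those of all other conditions, but its largest change was the smallest among the 6 tested genes, with 2.98-fold between 0 and 12 h. At 1.5 h the log2 ratio to 0 h was 0.75, below the threshold although the bounds were apart, and FER1 was first called at 3 h (1.36). In deficiency it was called lower against late replete cells (-1.19) and missed the threshold against early ones (-0.90). FER2 (Cre13.g574500, chromosome 13, 1736131 to 1740604) lay between 0.0285 FPKM at 4.5 h and 0.134 in early replete cells. Every lower bound of FER2 was 0 and every pair of neighbours in its order of levels overlapped, so no difference could be read at these levels.

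Set side by side, the values of the genes were ordered differently at the ends of the time course. At 0 h FER1 had the highest value of the 7 genes (108 FPKM), followed by FEA2 (73.5), FEA1 (24.2), FTR1 (16.6), TEF22 (11.4), FRE1 (0.249) and FER2 (0.056). The bounds of FER1 and FEA2 overlapped there, as did those of FEA1 and FTR1 and, barely, of FTR1 and TEF22. At 24 h FEA1 was the highest (1318 FPKM), followed by FER1 (315), FEA2 (120), TEF22 (109), FTR1 (81.1), FRE1 (8.15) and FER2 (0.0786). FEA2 and TEF22 overlapped at 24 h, as did TEF22 and FTR1.

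Zinc deficiency went with lower levels of 3 of the 6 tested genes against both replete cultures, with 0 higher. These were FEA1 (log2 ratio -3.94 against early and -5.52 against late), TEF22 (-1.77 and -2.62) and FTR1 (-1.31 and -1.69). Over all 11451 genes tested this way 5.76% were called lower and 5.58% higher (4.47% and 6.78% at equal total FPKM). FEA1 had the 16th lowest ratio of all. Against early replete cells alone 3 of 6 were lower, beside 8.82% of all genes lower and 7.59% higher (5.44% and 11.5% at equal total FPKM). Against late replete cells alone 5 of 6 were lower, FRE1 and FER1 being added, beside 7.64% of all genes lower and 7.48% higher. The median log2 ratio of the 6 genes was -1.11 against early and -2.15 against late cells, where that of all genes tested was -0.09 and -0.04.

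The 2 replete cultures themselves differed in FEA1 and FRE1, which were both higher in late cells, by 2.99-fold (1.70 to 5.86) for FEA1. Only 0.741% of all 11465 genes were called higher there and 0.689% lower (1.5% and 0.244% at equal total FPKM). The other 4 tested genes were not called, with log2 ratios of 0.29 for FER1, 0.38 for FTR1, 0.57 for FEA2 and 0.85 for TEF22. At equal total FPKM TEF22 also passed the threshold, at 1.12. FEA1 and FRE1 are also the 2 genes called higher between 4.5 and 12 h. The call of FRE1 in deficiency depends on which replete culture is the reference.

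Against 0 h, the tested genes were called in the higher direction only, and from different times on. At 1.5 h 4 of 6 were higher than at 0 h (FEA1, FEA2, TEF22 and FTR1), beside 12.0% of all genes higher and 9.24% lower. FEA1 had the 2nd highest log2 ratio of 11463 genes at that time, 3.93, and FEA2 the 23rd, 3.01. At 3 h and at 4.5 h 5 of 6 were higher, FER1 being added, beside 10.4% and 10.2% of all genes higher (6.61% and 6.43% at equal total FPKM, 7.95% and 7.73% with median-of-ratios factors). The lower calls at those times were 5.8% and 6.51% of all genes (9.26% and 9.08% at equal total FPKM, 7.58% and 7.88% with median-of-ratios factors). At 12 h all 6 tested genes were higher, beside 7.25% of all genes higher and 6.31% lower (6.79% and 7.14% at equal total FPKM). FRE1, added here, passed the filter only through late replete, 12 h and 24 h. At 24 h 5 of 6 were higher, FEA2 being at a log2 ratio of 0.70 and uncalled, beside 8.49% of all genes higher and 6.92% lower (6.67% and 8.92% at equal total FPKM). FEA1 then had the highest log2 ratio of all 11458 genes tested, 5.71. These 5 comparisons share the 0 h value, so they are not independent of each other.

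**Figure D4:**
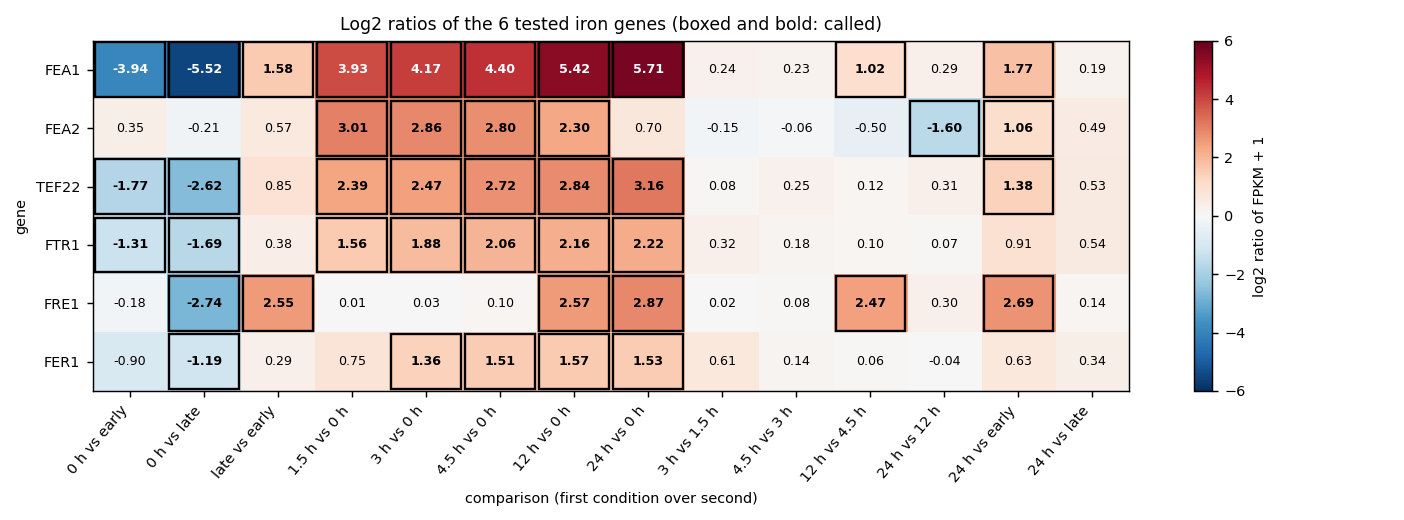
Log2 ratio of FPKM + 1 for the 6 tested genes (rows) in 14 comparisons (columns, first condition over second), coloured from blue (lower) to red (higher), with called values boxed and bold. Calls against 0 h begin at 1.5 h for FEA1, FEA2, TEF22 and FTR1, at 3 h for FER1 and at 12 h for FRE1.

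Steps between neighbouring times place the changes more closely, although these intervals differ in length. From 1.5 to 3 h 0 of 6 genes were called, beside 4.3% of all genes higher and 0.715% lower (2.91% and 1.61% at equal total FPKM). From 3 to 4.5 h again 0 of 6 were called, beside 0.253% higher and 0.0958% lower (0.348% and 0.0696% at equal total FPKM). From 4.5 to 12 h FEA1 and FRE1 were higher, beside 1.74% of all genes higher and 1.27% lower (2.85% and 0.688% at equal total FPKM, 2.26% and 0.836% with median-of-ratios factors). From 12 to 24 h FEA2 was lower, and 0 of 6 were higher, beside 0.454% of all genes lower and 0.209% higher. Expressed against its own highest level after zinc return, FEA2 was at 100% at 1.5 h and 20.0% at 24 h. FTR1 was at 62.9% and FER1 at 56.7% at 1.5 h, and both were above 85% at 4.5 h (89.3% and 95.8%). FEA1 was at 40.4% and FRE1 at 4.17% at 4.5 h, and they reached 81.8% and 79.1% at 12 h.

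**Figure D5:**
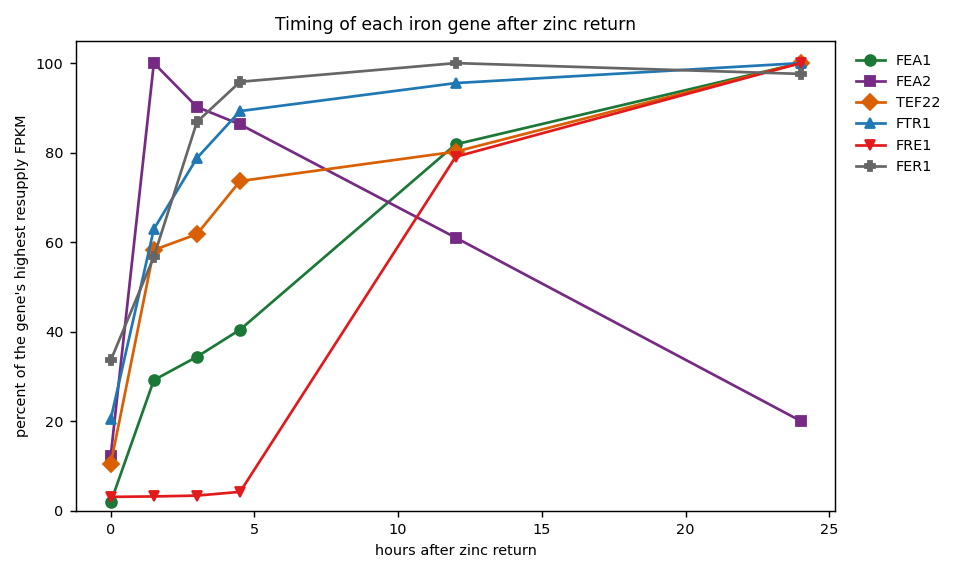
Level of the 6 tested genes at 0 h and after zinc return as percent of each gene's own highest resupply FPKM (vertical axis) against hours after zinc return (horizontal axis, linear); lines join the deposited values. FEA2 goes from 12.3% at 0 h to 100% at 1.5 h and ends at 20.0%. FTR1 and FER1 are near their highest level by 4.5 h, and FRE1 is at 4.17% at 4.5 h and 79.1% at 12 h.

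At 1.5 h FEA2 had the 23rd highest log2 ratio of 11464 genes against early replete cells and the 70th of 11472 against late ones. FEA2 was 10.5 times as high as in early (7.10 to 15.6) and 7.02 times as high as in late replete cells (4.32 to 12.4). It was the 1 tested gene called higher against either, beside 9.25% of all genes against early (12.3% at equal total FPKM) and 14.4% against late cells. With 6 genes, a count of 1 is close to these shares. FEA1 and FRE1 were lower than in late cells, beside 12.6% of all genes, and 0 of 6 were lower than in early cells, beside 10.5% (8.31% at equal total FPKM). At 24 h 4 of the 6 genes were higher than in early replete cells (FEA1, FEA2, TEF22 and FRE1), beside 0.14% of all 11465 genes higher (16 genes, these 4 included) and 0.445% lower. FTR1 and FER1 had log2 ratios of 0.91 and 0.63. Against late replete cells 0 of 6 were called at 24 h, beside 0.602% higher and 0.794% lower (0.366% and 1.02% at equal total FPKM). The log2 ratios there ran from 0.14 for FRE1 to 0.54 for FTR1.

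Between 1 and 3 other iron genes were called in deficiency against both replete cultures and at each time against 0 h, counts given here beside the shares over all genes. The 53 symbols looked up were of iron transport, copper steps of the ferroxidase (of which ATX1 was tested), iron nutrition and iron-sulfur assembly. Of them, 17 matched a gene and 16 passed the filter, so the list covers these genes in part only. Against both replete cultures 1 of 16 was lower in deficiency and 0 were higher, beside 5.76% and 5.58% of all genes. The list's median log2 ratio was -0.02 there, and that of all genes -0.04. The lower one was MSD3, a manganese superoxide dismutase known to rise in iron-starved cells, at 2.50 FPKM (1.79 to 3.21) against 19.2 and 16.0. MSD3 stayed between 1.90 and 2.74 FPKM up to 4.5 h and stood at 17.6 FPKM (15.0 to 20.1) at 12 h, as late as FRE1, but unlike FRE1 it was high in both replete cultures. At 1.5 h 2 of 16 were higher than at 0 h and 1 was lower, beside 12.0% and 9.24% of all genes, the list's median being 0.19 and that of all genes 0.02. AOF1 rose from 9.69 to 76.9 FPKM and FDX3, a ferredoxin, from 50.2 to 110 FPKM, while FSD1, the iron superoxide dismutase, fell from 683 to 297 FPKM. At 3 h 2 of 16 were higher and 0 lower, beside 10.4% and 5.8% of all genes, and at 4.5 h 1 was higher and 1 lower, beside 10.2% and 6.51%. At 12 h 1 was higher and 1 lower, beside 7.25% and 6.31%, and at 24 h 3 were higher and 0 lower, beside 8.49% and 6.92%. Among those at 24 h was IRT2, a ZIP-family transporter picked here after its values were seen, which went from 0.41 to 2.35 FPKM. IRT1, of the same family and also picked after its values were seen, had a mean of 0.742 FPKM and was not tested. It stood at 3.56 FPKM (2.79 to 4.34) at 0 h against 0.0454 and 0.00554 in early and late replete cells, with bounds apart, and at 0.976 FPKM at 1.5 h. The 4 iron-sulfur assembly genes found (NFU1, NFU2, NFU3 and FTX1) were not called in deficiency or against 0 h at any time.

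Likeness of profiles was measured as the root mean square difference of log2(FPKM + 1), each gene centred on its own mean over the 8 conditions, a smaller value being more alike. Within the set, FTR1 and FER1 were closest (0.22), then FTR1 and TEF22 (0.29), while FEA2 and FRE1 were farthest apart (2.08). Among 2398 other genes with a symbol, the closest to FER1 were OAT1 (0.17), VTE5 (0.18) and CYN26 (0.2), and the closest to FTR1 were VTE5 (0.22), MAPK4 (0.26) and TEF10a (0.28). VTE5 was also the closest to TEF22 (0.45), before DCA1 (0.45) and ADK4 (0.46). FEA1, FEA2 and FRE1 had larger differences to their nearest genes. For FEA1 the nearest were HRP3 (0.88), ACS3, an acetyl-CoA synthetase (0.89), and IPY3 (0.91), all farther than its neighbour TEF22 (0.85). For FEA2 they were PRM2 (0.80), TPT2 (0.81) and CRB3 (0.83). PRM2 had its highest value at 3 h, 148 FPKM against 129 FPKM at 1.5 h, with bounds not examined here. It was at 43.1 FPKM by 12 h, when FEA2 was still at 61.0% of its highest level. For FRE1 they were AST1 (0.76), MME3 (0.76) and PSBX (0.78), which were all at lower levels at 1.5 h than at 0 h. The nearest to FER2 were NUOB10 (0.042), PTK4 (0.047) and PSN1 (0.049), which were nearly flat, as a gene near 0 is on this scale.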

How the data were processed

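The authors deposited 1 table of FPKM values, per the file headers, in which each of the 8 conditions has a level, its confidence bounds and a status for each gene. Per the submitters' processing notes it was made with TopHat2 and Cuffdiff. Versions, genome build, confidence level and the treatment of replicates are not given there. Columns were matched to conditions by name (0 left unused). Read counts could not be recovered: among 1177 genes under 0.1 FPKM in both early replete and 0 h cells, the fullest bin of 0.02 log2 units of the ratio held 1.27%, so no common step was seen and no count test was run.

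Calls were computed over the whole table with Python 3.11.15 and pandas 2.3.3, after the procedure had been tested on simulated data. The pseudocount of 1 FPKM makes ratios of low genes such as FRE1 smaller. Ranges of folds come from the extremes of the deposited bounds, which may leave out variation between cultures. Coordinates count from 1, and spans equal those of assembly Chlamydomonas_reinhardtii_v5.5 for 11552 of 11713 matched identifiers and for all 7 genes. The genes and the list of other iron genes were chosen with earlier results of these data known. Named beyond the 7 are the called genes of that list in deficiency and at 1.5 h, the 3 nearest profiles of each gene, and ZRT1 and ZRT3. The genes flanking FEA2 and TEF22, FOX1, ATX1, MRS3, IRT1, IRT2, NFU1, NFU2, NFU3 and FTX1 were named outside this rule. Alternatives were other pseudocounts, filters, fold thresholds and scalings, and calls without the bounds.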

Additional observations from a re-analysis of the deposited data

How the results depend on the processing

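Each ratio of the 7 genes was recomputed under 8 alternatives, and 924 values kept their call or stayed uncalled, 26 lost the call, 2 gained it and 0 called values changed direction. Among the 924 were 13 uncalled ratios of at most 0.18 in size that changed sign with a rescaling. The 26 follow from stricter thresholds: 19 from a log2 ratio of at least 2, and 7 from a mean of at least 5 FPKM, which removes FRE1. The 2 gained, at equal total FPKM, were TEF22 between the replete cultures (1.12) and FTR1 at 24 h against early replete cells (1.05). Calls of the 7 genes were the same without the bounds, with either pseudocount, without the filter and with median-of-ratios factors. At a log2 ratio of at least 2 the number of called genes was 1 in deficiency against both replete cultures and against the early one, 3 against the late one, 1 between the replete cultures, 3 at 3 h, 1 from 4.5 to 12 h, 0 from 12 to 24 h and 1 at 24 h against early replete cells. A mean of at least 5 FPKM left 1 between the replete cultures and 1 from 4.5 to 12 h.

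For the list of other iron genes, the called number in deficiency was 2 against both and against each replete culture without the filter or at equal total FPKM. A pseudocount of 0.1 FPKM gave 2 against the early and 4 against the late culture, and 4 at 3 h. A pseudocount of 5 FPKM gave 0 between the replete cultures and at 4.5 h, and 1 at 24 h. A log2 ratio of at least 2 gave 0 between the replete cultures and at 3 and 4.5 h, and 1 at 1.5 and 24 h. Either rescaling gave 1 at 4.5 h. The gene gained without the filter in deficiency was IRT1, which was higher at 0 h (log2 ratios 2.13 against early and 2.18 against late). Among the tested genes, MRS3 came closest to a higher call there, at 0.75 and 0.98 as deposited. The cause of the other shifts was not tested.

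Rescaling moved ratios by up to 0.17 log2 units with median-of-ratios factors (3 h against 0 h) and 0.30 at equal total FPKM (0 h against early replete cells). The nearest profiles of FEA2, TEF22 and FTR1 kept at least 2 of 3 genes under 5 alternatives, while FEA1, FRE1, FER1 and FER2 fell to 1 or 0 in at least 1 of them. No paired analysis was possible because each condition has 1 deposited value. For the same reason no replicate could be left out. Depth is unknown, and the lower bounds of FER2 are all 0.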
